A study of Mus musculus with 30 samples.

Results

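The cytosolic ribosomal protein genes were examined in J774A.1, a mouse macrophage-like cell line, as 81 genes chosen by name and level. The name rule took every symbol made of Rpl or Rps and a number, with the usual paralog letters, plus Rpsa, Rplp0, Rplp1 and Rplp2, and left out the loci marked -ps as pseudogenes. Of 54146 genes listed, 89 had such a name, and 81 of these reached a mean of 20 CPM (a gene's counts scaled to a common library size with TMM factors) over 30 libraries. No response to treatment and no clone difference entered the rule. The libraries came from 5 clonal lines, each grown either untreated (UT) or with 100 ng/mL mouse interferon gamma (IFNG) for 4 h, with 3 polyA libraries in each of these 10 groups. WT1, WT2 and WT3 were wild-type clones expanded from single cells and not electroporated. KO1 and KO2 were clones isolated by limiting dilution after electroporation of Cas9 and guides, both homozygous for deletion of B2_Mm2.Dicer1, a B2 retrotransposon copy inside an intron of Dicer1. Each label is 1 clone, so genotype, electroporation and the history of single clones cannot be told apart. The libraries of a group were not described as separate cultures in the labels used here, so p-values measure the spread between these libraries, which may be technical. Library numbers below only name the columns. The RNA input was 200 or 500 ng and the adapters were of 2 kinds, with no record of which library had which, so their part in the results was not tested.

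The cytosolic ribosome is built from a small subunit, which reads the mRNA, and a large subunit, which joins the amino acids, and each contains ribosomal RNA and one copy of most of its proteins. The acidic stalk of the large subunit, formed by Rplp0, Rplp1 and Rplp2, recruits the translation factors. The mRNAs of these proteins are among the most abundant in growing cells, and most begin with a run of pyrimidines that starts with a C at the cap (the terminal oligopyrimidine, or TOP, motif), through which the mTORC1 kinase controls their translation. Interferon gamma is a cytokine of T cells and natural killer cells that turns macrophages toward antimicrobial and antigen-presenting functions.

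The sequences around the start sites of members that the results below turn on are given here because the start site is where these genes share their best-known element. Each is a window of 50 bases, 30 before the start and 20 from it, 5′ to 3′ on the gene's strand, from RefSeq on GRCm38.p6. Capitals mark the longest run of pyrimidines (C or T) that reaches to within 20 bases of the start, so far as it lies in the window.
Rps21, chr2:180257349-180257398, plus strand: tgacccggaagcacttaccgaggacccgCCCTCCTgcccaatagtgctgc
Rps18, chr17:33955646-33955695, minus strand: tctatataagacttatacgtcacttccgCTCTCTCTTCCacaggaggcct
Rps10, chr17:27635225-27635274, minus strand: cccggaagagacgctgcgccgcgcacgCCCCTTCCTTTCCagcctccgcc
Rps28, chr17:33824543-33824592, minus strand: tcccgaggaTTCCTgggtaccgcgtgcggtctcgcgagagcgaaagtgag
Rpl26, chr11:68901536-68901585, plus strand: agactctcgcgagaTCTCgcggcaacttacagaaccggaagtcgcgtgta
Rpl31, chr1:39367821-39367870, plus strand: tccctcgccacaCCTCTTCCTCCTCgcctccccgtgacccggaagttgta
Rps7, chr12:28635934-28635983, minus strand: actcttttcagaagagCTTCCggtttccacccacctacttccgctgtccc

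The runs of Rps21, Rps18 and Rps10 span the annotated start, with 7, 11 and 13 pyrimidines. Rps21 has another annotated start downstream, not printed, where the run is of 5 bases and ends before the start. The marked runs of Rps28, Rpl26 and Rps7 are of 5, 4 and 5 bases and end before the start. Rps7 has further runs of 5 bases within 20 bases of the start, on either side of it. The run of Rpl31 is of 13 bases and ends before the start. RefSeq starts can lie some bases from the starts that cells use, so a run beside the start may still be transcribed. Of the 81 members, 60 had an entry in the table of start sites. A pyrimidine run of at least 8 bases reaching to within 20 bases of the start was found in 32 of the 60 (53.3%), against 23.7% of the 27025 genes with an entry. A C at the annotated start followed by 4 pyrimidines was found in 13 (21.7%), against 3.01% of all. In the 300 bases from 250 before the start to 50 after it, on either strand, CCGGAAG, the core of ETS-family sites such as those of GABPA, was found in 41.7% of members and 9.93% of all genes. AAGATGGC, the YY1 core, was found in 10.0% and 3.19%, GGGCGG, the GC box, in 63.3% and 38.2%, the E-box CACGTG in 10.0% and 8.09%, and TATAAA, the TATA box, in 11.7% and 15.7%.

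The members comprised 33 genes of the small subunit, 45 of the large subunit and the 3 stalk genes, on 19 chromosomes, with 14 on chromosome 7 and 7 on chromosome 17. Their median level was 458 CPM and 38 of them exceeded 500 CPM. Rpsa, the small-subunit protein that also serves as a laminin receptor, was highest at 1529 CPM, followed by Rpl4 at 1519 CPM. Per kilobase of exon, the highest were Rps3a1 with 1292 CPM per kb and Rplp1 with 1238 CPM per kb, and the lowest were Rpl35a and, with 19.7 CPM per kb, Rpl29. The lowest members above the level limit were Rpl29 (22.1 CPM), Rpl35a (52.8 CPM) and Rpl6l (68.0 CPM). Below the limit lay Rps3a3 (18.7 CPM), Rpl21 (5.59 CPM), Rpl32l (3.88 CPM) and Rpl3l (1.22 CPM). Unique alignment, described below, can cost these genes reads too, so a low value such as that of Rpl21 need not mean little mRNA. Rps12l1 and Rps4l had under 1 CPM, and Rpl10l and Rpl39l, known from testis, were at 0 in every library.

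Reads of these genes compete with processed copies. In the GENCODE vM21 transcripts, a median of 31.1% of the 100-base windows of a member's coding transcript also occurred in another gene, and 22 of the 79 members with such a transcript shared at least 50% of their windows. The authors kept uniquely aligned fragments, so shared windows cost a member reads, and its level between genes is uncertain. For 26 members an exon overlapped one of another gene on the same strand. Overlapping genes were each credited, so these members can also gain reads, which may vary with the other gene. Rps2 shared 58.5% of its windows and stood at 112 CPM, while the locus Rps2-ps10 stood at 782 CPM. Comparisons of one gene between libraries use the same windows. Rps21 and Rps27l shared no window.

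The libraries held 15566122 to 37992642 counts, and the member with the fewest, Rpl29, had a mean of 521 counts. Dicer1, the host gene of the deleted element, had mean untreated levels of 106, 128 and 123 CPM in WT1, WT2 and WT3. In KO1 and KO2 it had 71.0 and 105 CPM. Dicer1 lies on chromosome 12, where genes around 2 members were also lower in untreated KO1, as given below. The element itself lies in an intron that was not counted. The 9 macrophage markers summed to 5470 to 8588 CPM, lowest in WT1 (5470 to 6197 CPM), and their part in the differences below was not tested. T cell, B cell and epithelial marker lists summed to at most 0.318 CPM per library, with Cd3g, Cd8a, Cd2, Krt8 and Krt18 at 0. The fibroblast list summed to 0.332 to 2.96 CPM with Dcn at 0. With IFNG over the 5 clones, 3 macrophage markers rose and 3 fell, and of the other 4 lists only Pdgfra, a fibroblast marker, was tested, which fell by 0.32 (edgeR adjusted p = 0.0414).

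Summed over the 81 members, CPM came to between 3.49% and 5.00% of the common library size. Below, this TMM-scaled sum is called the share, and it is not the percent of a library's own counts. The clone means ranged more widely, from 3.59% to 4.69%, than any clone moved with treatment. WT1 had 5.00%, 4.41% and 4.33% untreated and 4.62%, 4.80% and 4.65% with IFNG. WT2 had 3.92%, 4.08% and 3.92% untreated and 3.84%, 3.92% and 3.91% with IFNG. WT3 had 3.68%, 3.56% and 3.71% untreated and 3.74%, 3.54% and 3.49% with IFNG. The 6 WT3 libraries were the lowest 6 of the 30. KO1 had 4.54%, 4.30% and 4.57% untreated and 4.29%, 4.50% and 4.52% with IFNG. KO2 had 4.05%, 4.24% and 4.25% untreated and 4.40%, 4.35% and 4.52% with IFNG. Untreated library 1 of WT1 stood above every other library. CPM are relative levels, so less ribosomal protein mRNA cannot be told apart from more of other mRNAs, nor fewer cells of a kind from less RNA per cell.

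**Figure D1:**
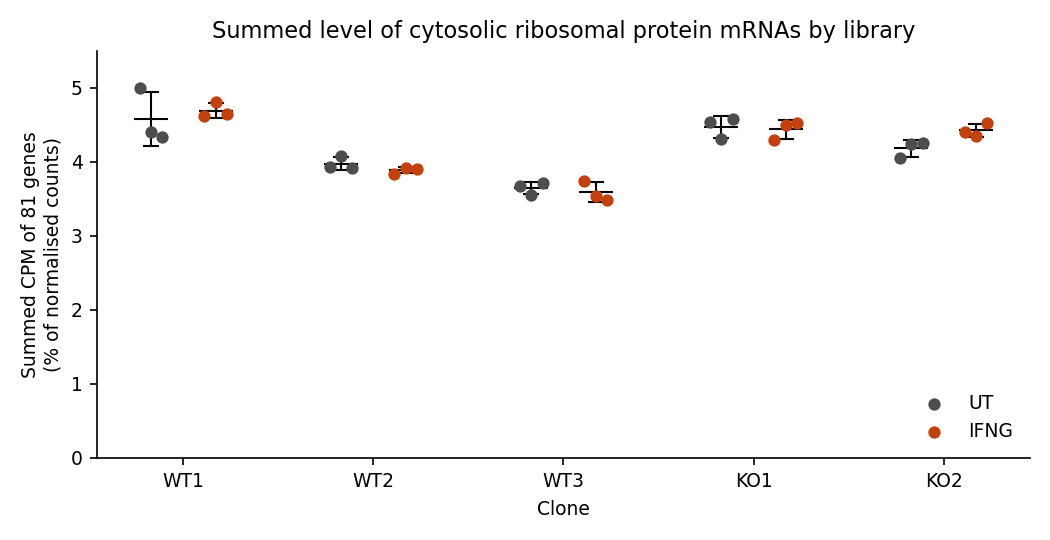
Summed CPM of the 81 ribosomal protein genes as a percent of the common library size after TMM scaling (vertical axis), one point per library, by clone (horizontal axis) and treatment (grey untreated, orange IFNG), with the mean and SD of 3 libraries. WT3 lies between 3.49% and 3.74% in both treatments, and WT1 untreated spans 4.33% to 5.00%.

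The change of this share with IFNG was small in each clone. It was 0.110 percentage points in WT1, -0.0866 in WT2, -0.0586 in WT3, -0.0330 in KO1 and 0.242 in KO2. The mean change over the 5 clones was 0.0348 percentage points (two-sided exact permutation test by sign, n = 5 clones, p = 0.688, smallest possible p 0.0625). In WT2 the IFNG libraries all lay below the untreated ones and in KO2 all above them (two-sided exact permutation test, n = 3 and 3, p = 0.1 in each, the smallest this size allows). Adjusted over the 8 tests of this share, both were 0.4. As a percent of a library's own counts, without TMM factors, the means went with IFNG from 4.67% to 4.64% in WT1 and from 4.07% to 3.91% in WT2. They went from 3.75% to 3.56% in WT3 and from 4.53% to 4.24% in KO1. In KO2 they went from 4.22% to 4.25%, with overlapping libraries. This percent was not tested. The share of KO clones exceeded that of WT clones by 0.259 percentage points untreated and by 0.375 with IFNG, with overlapping clones (two-sided exact permutation test over clone means, n = 2 and 3, p = 0.6 in both, smallest possible p 0.1). The sum over the small subunit stayed at 0.722 to 0.768 of the sum over the large subunit with its stalk in every library.

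The first comparison asked whether IFNG changed the mRNA of ribosomal proteins, with the 5 clones as terms of one fit. It called 53.2% of the 14525 genes tested (edgeR quasi-likelihood test, adjusted p under 0.05), 24.9% as higher and 28.3% as lower. Of the 81 members it called none as higher (1 at an unadjusted p under 0.05; DESeq2 0) and 1 as lower (3 at an unadjusted p under 0.05; DESeq2 2). Rpl37a, a zinc-binding protein of the large subunit, fell by 0.06 on the log2 scale (SE 0.02, edgeR adjusted p = 0.0117). It went from 518, 492 and 515 CPM to 499, 444 and 431 CPM in WT3 and from 547, 554 and 534 to 493, 514 and 526 CPM in WT2, where the groups did not overlap in WT2 and overlapped in WT3. In KO2 it stayed at 577, 567 and 583 CPM untreated and 577, 579 and 577 CPM with IFNG. No member was called as lower without clone WT2 or without clone WT3, and 5 were without KO2. Leaving out single libraries gave 1 to 4 lower members, the most without IFNG library 1 of KO2, and 0 to 3 higher ones, the most without untreated library 2 of WT2.

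All 81 log2 fold changes lay within 0.1 of 0 in this fit. They ran from -0.07 for Rps29 to 0.09 for Rpl22l1, and neither end was called. Their median was 0.01 and their median absolute size 0.02, against 0.10 for the 7143 other genes of at least 20 CPM. The median SE of a member was 0.03, so changes of the median size were not detectable with these libraries. The small subunit had a median of 0.01, the large subunit 0.01 and the stalk -0.03. In these libraries Fcgr1, the high-affinity IgG receptor and a known IFNG target, rose by 2.23 (SE 0.03, edgeR adjusted p = 4.65e-35).

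**Figure D2:**
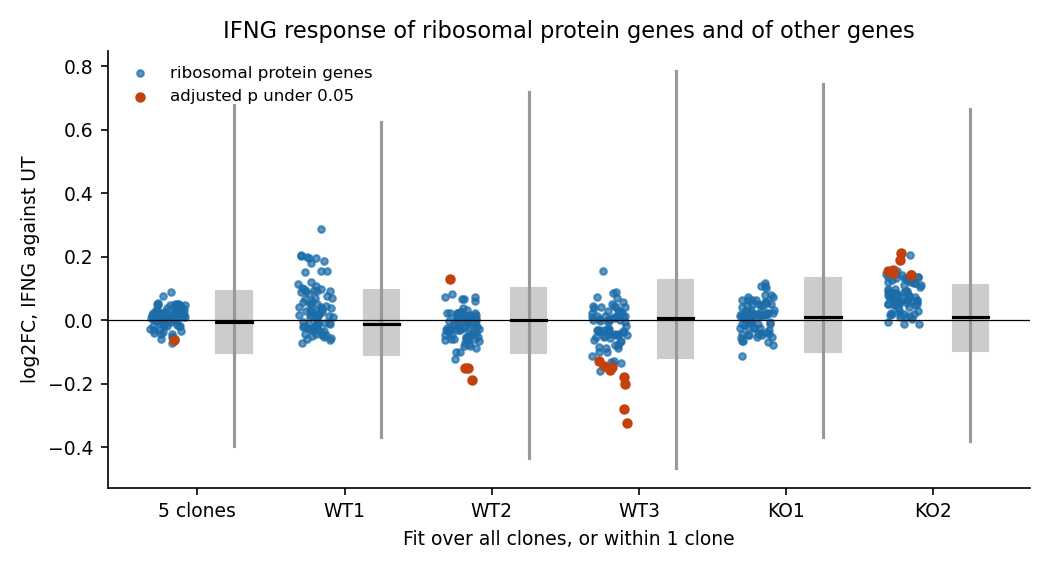
Log2 fold change of IFNG against untreated for the 81 members (points, orange where the edgeR adjusted p is under 0.05) beside the other genes of at least 20 CPM (box from 25% to 75%, line from 5% to 95%), in the fit over 5 clones and within each clone. In the fit over 5 clones the members lie within 0.1 of 0, while KO2 has a median of 0.08 and WT3 a median of -0.03.

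Within single clones, between 0 and 8 members were called. In WT1 none was called (background 21.2% of genes, 1 member at an unadjusted p under 0.05, DESeq2 0), and in KO1 none was called (background 29.4%, 1 at an unadjusted p under 0.05, DESeq2 0). In WT2, Rps2 rose by 0.13 and Rpl26, Rpl39 and Rps27a fell by 0.19, 0.15 and 0.15 (background 17.4% higher and 17% lower; DESeq2 called 2, both lower). In WT3, 8 members fell (background for lower genes 17.5%; DESeq2 called 4), among them Rpl26, Rpl36, Rps29, Rpl41, Rplp1, Rpl37a and Rpl38. Rpl36 went from 186, 181 and 185 CPM to 169, 147 and 138 CPM, had the smallest p among them and fell by 0.28 (SE 0.06, edgeR adjusted p = 0.00071), and Rpl26 fell by 0.32 (SE 0.09, edgeR adjusted p = 0.011). In KO2, 7 members rose (background for higher genes 13.9%; DESeq2 called 11): Rpl36a, Rpl39, Rps27, Rpl26, Rpl35, Rpl38 and Rps25. Rpl36a rose by 0.21 (SE 0.06, edgeR adjusted p = 0.0121).

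These counts rest on single libraries. Leaving out 1 WT3 library at a time gave 2 to 25 lower members, 25 without IFNG library 1 and 2 without IFNG library 3. Leaving out 1 KO2 library gave 0 (without untreated library 1) to 15 (without IFNG library 1) higher members. Without untreated library 1 of WT1, the library with the highest share, 11 members were called as higher in WT1 in place of 0. In KO2, 78 of 81 fold changes were above 0, with a median of 0.08, against a median of 0.01 in other genes of at least 20 CPM.

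Rpl26, a large-subunit protein that also binds the p53 mRNA, was called in 3 clones and in opposite directions. In WT2 it went from 102, 120 and 100 CPM to 92.1, 97.8 and 91.7 CPM, and in WT3 from 82.0, 80.9 and 91.3 CPM to 80.7, 66.3 and 53.6 CPM. In KO2 it went from 123, 121 and 126 CPM to 142, 128 and 142 CPM. The groups did not overlap in any of the 3 clones. In WT1 it went from 174, 131 and 117 to 136, 164 and 141 CPM and in KO1 from 141, 122 and 138 to 123, 138 and 138 CPM, and both pairs of groups overlapped.

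The difference of the IFNG response between KO and WT clones was called for 1.02% of 14682 genes and for none of the 81 members (edgeR; 3 at an unadjusted p under 0.05; DESeq2 0). The smallest adjusted p among the members was 0.372, for Rpl23, and Rpl26 had the largest difference, 0.21. A test of any difference in response among the 5 clones, added after the data were seen, called 3.68% of 14870 genes and none of the members (8 at an unadjusted p under 0.05; DESeq2 1), with Rpl36 at an adjusted p of 0.0842. The opposite calls for Rpl26 in WT3 and KO2 were thus not shown to differ by these tests.

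The clones differed far more than the treatments. Among untreated libraries 73.2% of all genes tested differed between clones, and so did 79 of the 81 members, Rpl29 and Rpl9 being the exceptions (edgeR test over the 5 clones). With IFNG the background was 69.3% and 78 members differed, the exceptions being Rpl29, Rpl6l and Rplp0. The directions are therefore given clone by clone. WT3 was lower than the mean of the other 4 clones for 78 members untreated, against 20.7% of all genes lower, and for 75 with IFNG, against 19.3%. All 81 fold changes in WT3 were below 0 in both treatments, so edgeR had 0 members higher (background 22.5% untreated) also at an unadjusted p under 0.05, and DESeq2 called 0. Of the members lower in WT3, 74 were the same genes in both treatments, 94.9% of the untreated list and 98.7% of the IFNG list.

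Their median log2 fold change in WT3 was -0.24 untreated and -0.30 with IFNG, against 0.02 in other genes of at least 20 CPM untreated. WT3 had the lowest clone mean for 77 members untreated (95.1%) and 75 with IFNG (92.6%), against 17.7% and 19.2% of the other genes. The 4 exceptions among untreated members were Rpl32, Rpl7 and Rpl31, lowest in KO2, and Rps2, lowest in WT2.

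WT1 was higher for 67 members and lower for 1 untreated (background 28.2% higher and 24.6% lower), with a median of 0.15. Without its untreated library 1 the count was 39 and the median 0.09. KO1 was higher for 63 and lower for 2 (background 24.1% and 23.5%), with a median of 0.15. WT2 was higher for none (edgeR; 1 at an unadjusted p under 0.05; DESeq2 1; background 21.7%) and lower for 27 (background 19%), with a median of -0.07, and 15 or 17 were lower without its untreated library 1 or 3. KO2 was higher for 11 and lower for 3 (background 15.6% and 13.1%), with a median of 0.02. With IFNG the medians were 0.18 in WT1, -0.13 in WT2, 0.14 in KO1 and 0.11 in KO2, and 37 members were higher in KO2 (background 13%). That KO2 count was 20 to 24 when any 1 of its IFNG libraries was left out, and 46 members were lower in WT2 with IFNG (background 15.5%), but 29 or 30 without its IFNG library 1 or 3. Without untreated library 1 of WT1, 17 members were higher in untreated KO2. In order of the untreated median, WT1 and KO1 lay together above, then KO2, WT2 and WT3.

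The members had little annotated exon sequence, with a median exon length of 1739 bases per gene against 4784 in other genes of at least 20 CPM. This length joins all annotated exons of a gene and is not that of an mRNA. Among 235 other genes shorter than 1000 bases and of at least 20 CPM, 129 were lower and 15 higher in WT3 untreated, with a median of -0.14 against -0.24 in the members. In KO1 the short genes had the same median as the members, 0.15, and in WT1 0.02 against 0.15. When the trend over exon length was removed from each library, an alternative added after the data were seen, 71 members were lower in WT3 untreated, with a median of -0.20. By the same alternative 52 were higher in WT1 and 54 in KO1.

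**Figure D3:**
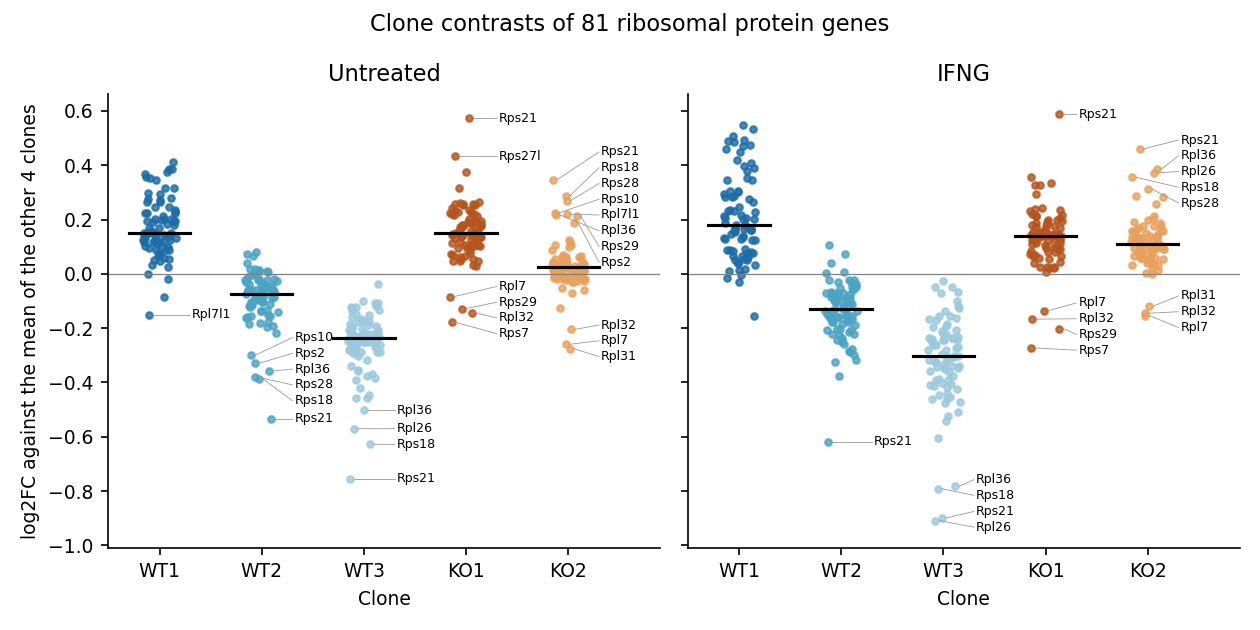
Log2 fold change of each clone against the mean of the other 4 clones for the 81 members, untreated and with IFNG, one point per gene and a line at the median. The median is lowest in WT3 (-0.24 untreated, -0.30 with IFNG), and the named genes lie more than 3 scaled median absolute deviations from it.

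Some members departed from the common shift of their clone. A member was said to stand apart where its log2 fold change lay more than 3 scaled median absolute deviations from the members' median, which is a description without a test. None did so in the IFNG response over 5 clones. In the clone comparisons 14 members did, led by Rps21 in 8 comparisons, Rps18 and Rpl36 in 5 each, and Rpl32 and Rpl7 in 4 each. Rpl26, Rps28 and Rps29 did so in 3, Rpl31, Rpl7l1, Rps10, Rps2 and Rps7 in 2, and Rps27l in 1.

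Rps21, a small protein of the small subunit whose start is printed above (chromosome 2, 180257377 to 180258445, plus strand, mm10), varied most. Untreated it had 393, 318 and 312 CPM in WT1, 202, 212 and 206 in WT2, and 191, 174 and 183 in WT3. In KO1 it had 392, 364 and 388 CPM and in KO2 332, 339 and 340. WT2 and WT3 were low and did not overlap with WT1, KO1 or KO2. With IFNG the pattern recurred, with 337, 393 and 349 CPM in WT1, 198, 192 and 199 in WT2, 190, 163 and 152 in WT3, 368, 382 and 400 in KO1 and 358, 363 and 357 in KO2. Against the other clones, the untreated log2 fold change was -0.75 in WT3 (SE 0.05, edgeR adjusted p = 8.6e-11), -0.53 in WT2 (adjusted p = 2.1e-08), 0.57 in KO1 (adjusted p = 9.6e-10) and 0.35 in KO2 (adjusted p = 4.9e-06).

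Rps18, Rps28, Rps10, Rps2, Rpl36 and Rpl7l1 lie on chromosome 17. Rps18, of the head of the small subunit, had 258, 194 and 191 CPM in WT1, 141, 139 and 132 in WT2, 114, 118 and 129 in WT3, 214, 193 and 202 in KO1 and 190, 206 and 203 in KO2, all untreated. WT2 and WT3 were again low, without overlap with the other 3 clones. Its untreated log2 fold change was -0.63 in WT3 (SE 0.07, edgeR adjusted p = 7.8e-08), -0.39 in WT2, 0.41 in WT1 and 0.29 in KO2. Rps28, of the small subunit, had 325, 292 and 310 CPM in WT1, 227, 213 and 233 in WT2, 215, 211 and 218 in WT3, 346, 334 and 342 in KO1 and 310, 320 and 335 in KO2, and fell into the same low and high clones. Rpl36 of the large subunit had untreated means of 301 ± 32, 199 ± 9.1, 184 ± 2.8, 280 ± 7.4 and 274 ± 5.3 CPM (SD, n = 3) in WT1, WT2, WT3, KO1 and KO2.

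Other members stood apart in KO clones alone, Rps7 in KO1 and Rps29 in both. Rps7, a small-subunit protein that can bind MDM2, had 519, 478 and 517 CPM in untreated KO1, against 565, 622 and 589 in KO2 and 541, 578 and 532 in WT2. The lowest clone mean of untreated Rps7 was in WT3, as for most members, and not in KO1. Against the mean of the other clones, Rps7 was 0.18 lower in KO1 (SE 0.05, edgeR adjusted p = 0.0076), where the median member was 0.15 higher. Rps29 shares chromosome 12 with Rps7 and had a log2 fold change of -0.13 in KO1, which did not pass the test (edgeR adjusted p = 0.0673). In KO2 it was 0.21 higher (edgeR adjusted p = 0.0052).

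Rpl32, a large-subunit protein on chromosome 6, was low in both KO clones. Untreated it had 796, 793 and 828 CPM in KO1 and 770, 784 and 786 in KO2. The WT1 libraries had 1126, 987 and 1013 CPM, WT2 had 912, 904 and 909, and WT3 had 864, 816 and 882. Apart from 1 KO1 library (828 CPM) that exceeded 1 WT3 library (816 CPM), the KO and WT libraries did not overlap. On chromosome 1, Rpl31 had 535, 571 and 560 CPM in KO2, against 686, 627 and 695 in KO1, and was 0.28 lower in KO2 than in the other clones (SE 0.05, edgeR adjusted p = 0.00031). Rpl7, also on chromosome 1, had 959, 1061 and 1027 CPM in KO2 and was 0.26 lower there (SE 0.05, edgeR adjusted p = 0.00012).

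**Figure D4:**
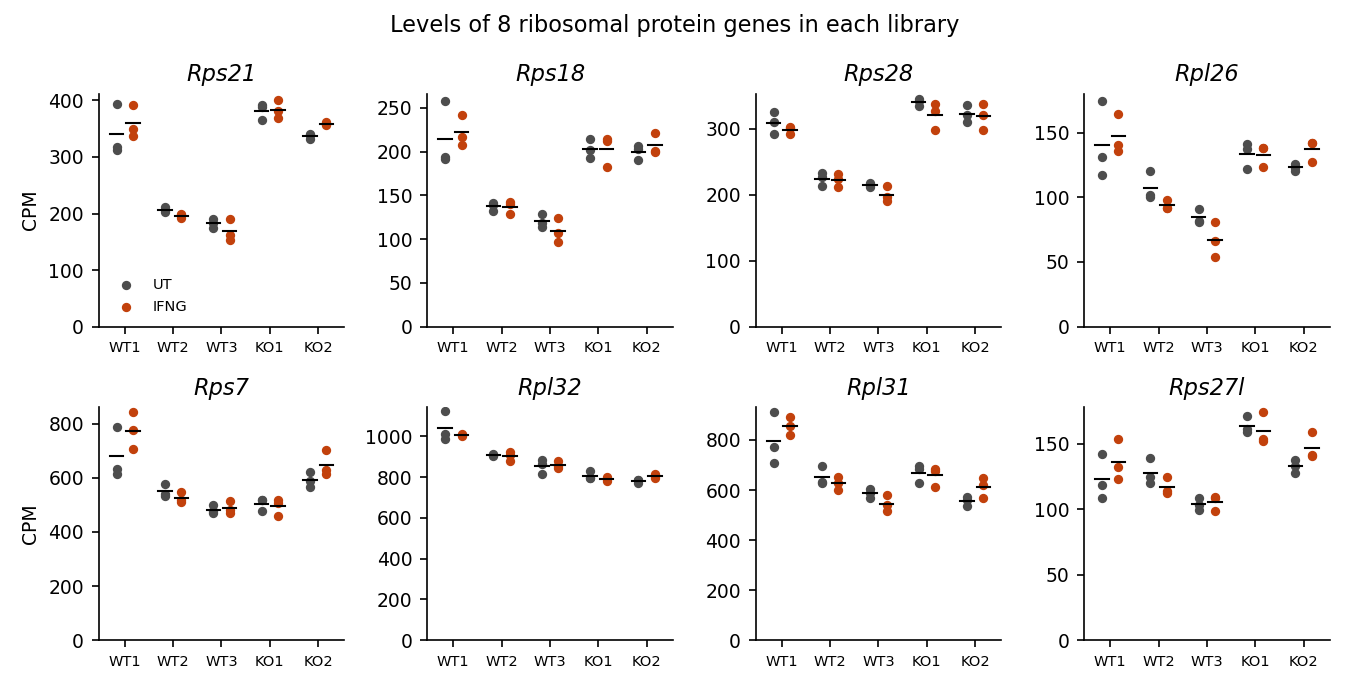
CPM by library for 8 members that stood apart, by clone (horizontal axis; grey untreated, orange IFNG). Rps21, Rps18 and Rps28 are low in WT2 and WT3, Rpl26 falls with IFNG in WT3, untreated Rps7 is lower in KO1 than in WT1, WT2 and KO2, Rpl32 is low in both KO clones, Rpl31 is low in untreated KO2, and Rps27l is high in KO1.

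Genes around the outlying members were examined next. For each member, the median log2 fold change of the other tested genes within 10 Mb on either side was taken, an examination added after the data were seen. Around Rps21 it was 0.23 in KO1, 0.21 in KO2, 0.17 in WT1, -0.26 in WT2 and -0.34 in WT3, over 87 genes. Around Rps18 it was 0.14, 0.15, 0.16, -0.24 and -0.21 in the same order, over 340 genes. Around Rps7 it was -0.36 in KO1, over 54 genes, and 0.07 in KO2. Around Rpl32 it was -0.23 in KO1, -0.22 in KO2 and 0.16 to 0.17 in the 3 WT clones, over 169 genes. Around Rpl31 it was -0.24 in KO1 and -0.21 in KO2, over 88 genes.

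In untreated KO2 all 11 members that stood apart deviated from the members' median in the direction of their neighbours. The count was 6 of 6 in WT2, 5 of 6 in KO1, 3 of 4 in WT3 and 0 of 1 in WT1. Across 80 members, the deviation and the neighbours' median had a Pearson r of 0.86 in KO2 (Spearman rho 0.39), 0.77 in WT2 (0.53), 0.67 in KO1 (0.29), 0.58 in WT3 (0.31) and 0.26 in WT1 (0.25). The points share libraries, neighbouring members share neighbours, and the lower rho shows that a few members carry the Pearson values. Rpl26 and Rps27l had neighbours with medians of -0.03 to 0.03 in every clone, although both stood apart. DNA copy number was not measured in these data, so its part in the chromosomal pattern was not tested.

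**Figure D5:**
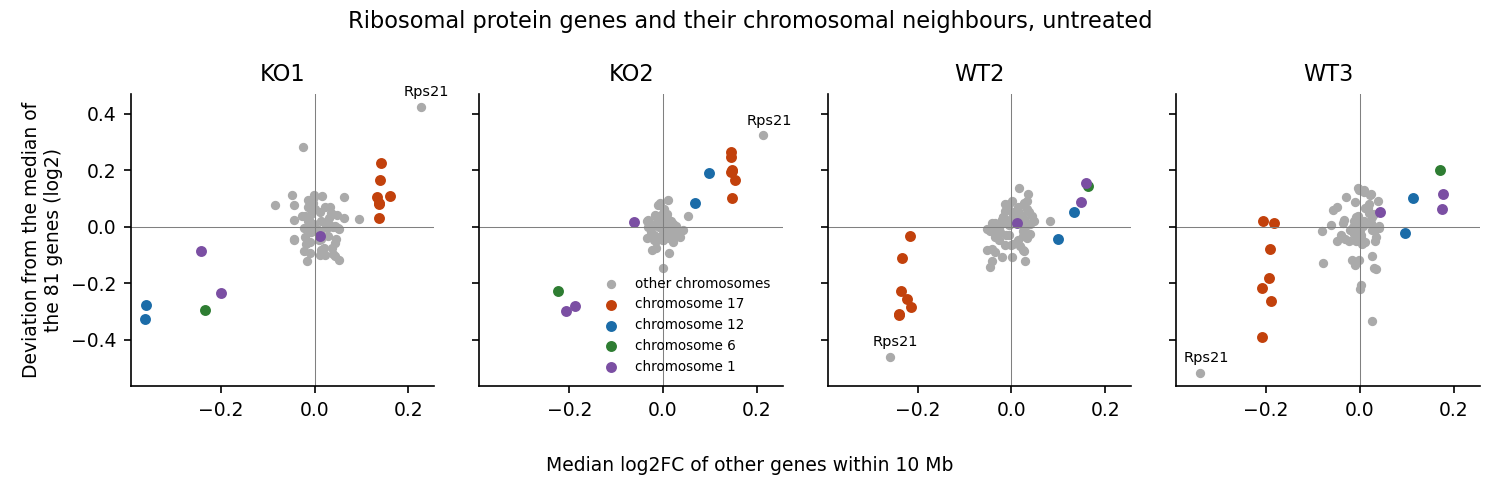
Deviation of each member from the members' median log2 fold change (vertical axis) against the median log2 fold change of the other genes within 10 Mb (horizontal axis), in untreated KO1, KO2, WT2 and WT3, with members on chromosomes 17, 12, 6 and 1 coloured. Rps21 and the members on chromosome 17 lie at lower left in WT2 and at upper right in KO1 and KO2. In WT3, Rps21 and Rps18 lie at lower left, but Rps2 and Rpl7l1 on chromosome 17 lie near the members' median.

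The study's own question was the effect of deleting B2_Mm2.Dicer1, and the members were therefore compared between the 2 KO and the 3 WT clones. Untreated, 11 members were higher and 2 lower in the KO clones (background 12.2% higher and 14.4% lower of 13886 genes), with a median of 0.11. With IFNG, 16 were higher and 1 lower (background 10.9% and 13% of 13637 genes), with a median of 0.16. The test had libraries as its units, while genotype varied only between clones. With counts summed per clone, edgeR called none of the members in either treatment (2 untreated and 3 with IFNG at an unadjusted p under 0.05), and 1 gene of all tested in each. Leaving out clones moved the untreated count of higher members from 1 (without KO1) to 69 (without WT1), with 4 without WT2, 2 without WT3 and 9 without KO2. The counts with IFNG ran from 1 (without KO1) to 72 (without WT1), with 3 without WT2, 3 without WT3 and 5 without KO2. Single libraries moved them as well, to 42 untreated without untreated library 1 of WT1, to 6 or 7 without untreated library 2 of WT2, any of WT3, or 1 or 3 of KO1, to 27 to 32 with IFNG without any 1 IFNG library of WT1, and to 8 to 10 without any 1 of WT2 or KO1 or library 1 of WT3.

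The largest differences were those of the outlying members. Rps21 was 0.56 higher in KO clones untreated (SE 0.16, edgeR adjusted p = 0.0178) and 0.62 higher with IFNG (SE 0.19, adjusted p = 0.0269), but its WT1 libraries overlapped with those of the KO clones. Rps10 was 0.28 and 0.30 higher, and its clone means overlapped likewise. Rps28 was 0.41 higher in both treatments, Rps27l 0.33 and 0.36, Rpl7l1 0.32 and 0.33, and Rps2 0.27 and 0.26. For these 4, and for Rpl14 and Rplp2, both KO clone means exceeded all 3 WT clone means in both treatments. Rpl32 fell by 0.24 untreated and by 0.21 with IFNG, with both KO means below every WT mean. Rpl7 fell by 0.24 untreated (SE 0.08, edgeR adjusted p = 0.0426), with overlapping clone means. Both KO means exceeded all WT means for 7 members untreated (8.64%, against 17.1% of other genes of at least 20 CPM) and for 16 with IFNG (19.8%, against 19.5%). Both lay below all WT means for Rpl32 alone untreated (1.23%, against 15% of the other genes) and for 2 with IFNG (2.47%, against 13.6%).

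Of the 13 members called untreated, Rpl7, Rps21, Rpl32, Rps2, Rps10, Rps28 and Rpl7l1 had neighbours whose median differed between KO and WT by at least 0.1 in the same direction. Of the 68 not called, 6 had neighbours whose median differed by at least 0.1. For Rps29 among these, the neighbours' median (-0.16) was opposite in sign to its own log2 fold change (0.06). Rps27l, Rpl13, Rpl35a, Rplp2, Rpl14 and Rpl10 were called without such neighbours. Rps27l, a paralog of Rps27 and a known p53 target, had 171, 161 and 159 CPM in untreated KO1 and 128, 138 and 133 in KO2, against 142, 119 and 108 in WT1, 120, 139 and 125 in WT2 and 99.8, 103 and 109 in WT3. KO1 thus lay above every WT library, while KO2 lay within their range. Of 12 other p53 targets, 6 were higher and 0 lower in untreated KO clones, and 10 were higher and 2 lower in untreated KO1, beside backgrounds of 12.2% higher and 14.4% lower for KO against WT and of 24.1% and 23.5% for KO1. Rpl7l1, which is related to Rpl7 and acts in making the large subunit, had 203, 202 and 204 CPM in untreated KO1 and 198, 196 and 203 in KO2. Its 9 untreated WT libraries lay between 151 and 168 CPM, without overlap.

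The paralog pairs and the stalk were compared for themselves. Rpl22, an RNA-binding protein of the large subunit, was 0.32 higher in untreated WT1 (edgeR adjusted p = 2.0e-05) and 0.36 lower in WT3 (adjusted p = 1.4e-05). Its paralog Rpl22l1 had -0.02 in WT1 (edgeR adjusted p = 0.838) and was 0.24 lower in WT3 (adjusted p = 0.0078). Rpl7 was 0.39 higher and Rpl7l1 0.15 lower in WT1 (edgeR adjusted p = 1.1e-07 and 0.00023). Rps27 was 0.22 and Rps27l 0.43 higher in KO1 (edgeR adjusted p = 0.0076 and 7.0e-07). Rpl36a, on chromosome X, was 0.18 higher in KO1 (edgeR adjusted p = 0.0187), and Rpl36al, on chromosome 12, was 0.19 lower there (adjusted p = 0.0011). Around Rps7 and Rps29, also on chromosome 12, the neighbours' median in untreated KO1 was -0.36. Its part in the difference between these paralogs was not tested. Per kilobase, Rpl36a stood at 141 and Rpl36al at 87.7 CPM per kb.

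Of the partners that miss the level limit, Rpl3l had 1.22 CPM, and Rps4l, Rpl10l and Rpl39l were at or near 0, beside Rpl3 at 652 CPM, Rps4x at 1156, Rpl10 at 771 and Rpl39 at 306. The stalk genes had log2 fold changes with IFNG of -0.02 for Rplp0, -0.03 for Rplp1 and -0.04 for Rplp2, none of them called. In untreated WT3, Rplp1 was 0.25 and Rplp2 0.28 lower, and Rplp0 0.10 lower. Over the means of the 10 groups Rplp0 had the narrowest range of all members, 0.17 on the log2 scale, and Rps21 the widest, 1.18.

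Related genes were counted in lists chosen with earlier results of these data known. Of 7 ribosomal proteins outside the name rule, such as Fau, which encodes a fusion with a ubiquitin-like protein, 6 were lower in untreated WT3. Of 16 other mRNAs with a TOP motif, 3 rose and 1 fell with IFNG, and 12 were lower in untreated WT3. The largest were Vim, encoding vimentin, which rose by 0.48, Eif3e, which rose by 0.12, and Eif4b, which fell by 0.09. Of 11 genes that host small nucleolar RNAs, 7 rose and 1 fell, led by Zfas1 (0.42) and Gas5 (0.41), and 8 were lower in WT3. The WT3 counts stand beside 20.7% of all genes lower in untreated WT3.

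Further lists cover the making of ribosomes. Of 50 ribosome biogenesis genes 16 rose and 5 fell with IFNG, led by Rrp12 (1.13) and Noc4l (1.11), both of the pre-ribosomal export and processing machinery, while Utp4 fell by 0.24. Of 14 RNA polymerase I genes 5 rose and 6 fell, with Twistnb, a subunit of the enzyme, at 0.60 and Ubtf, its upstream factor, at -0.43. Of 22 genes of mTORC1, TOP and MYC control 7 rose and 7 fell, with Mxd1 at 1.01 and Max at 0.65, both partners in the MYC network, and Mxd4 at -0.69. Of 12 genes listed for folding and import of ribosomal proteins 3 rose and 3 fell, with Ipo7 at 0.09 and Pdcd2l at -0.10. Among those that rose was Aar2 (0.15), a splicing factor rather than a gene of this kind. Of 75 mitochondrial ribosomal proteins 15 rose and 17 fell, with Mrpl22 at 0.23 and Mrps6 at -0.23. Of the 12 p53 targets 5 rose and 5 fell, with Cdkn1a, the cell-cycle inhibitor p21, at 0.66 and Sesn2 at -0.43. These counts stand beside the background of 24.9% higher and 28.3% lower, with no test of a list.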

How the data were processed

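PolyA RNA was sequenced in 30 libraries of 5 J774A.1 clones, untreated or treated with IFNG. Per the labels, the study's methods and the file headers, the authors trimmed reads (BBDuk), aligned them to mm10 with HISAT2 2.1.0, kept uniquely aligned fragments, merged technical replicates with SAMtools 1.10 and deposited raw counts per gene from featureCounts 1.6.2, reversely stranded, with overlapping genes each credited. The headers name GENCODE vM18, while the methods name a RefSeq annotation. The 14 deposited tables were checked against the table of all libraries, and 138 of 138 columns were identical. The columns of WT2 and WT3 carry other clone names (wtc1 and wtc3), and were assigned from the titles of the authors' tables that hold each clone alone, so these 2 clone names rest on those titles.

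Counts were filtered (filterByExpr), normalized by TMM and tested with edgeR 4.0.16 quasi-likelihood fits in R 4.3.3 on all genes, with Benjamini-Hochberg adjusted p under 0.05. SE is the log2 fold change divided by the square root of F. The IFNG fit over 5 clones had clone terms. Each clone contrast set 1 clone against the mean of the other 4 in the same treatment. KO against WT had libraries as units. Alternatives were DESeq2 1.42.0, RLE normalization, TMM factors from other genes, no or a 10-count filter, sums per clone, removal of a length trend, no clone term, WT or KO clones alone, and leaving out clones or libraries; a clone-by-treatment test, the length trend in the clone comparisons and the 10 Mb neighbours were added after seeing the data. Scripts were tested on simulated data. Depth was 15566122 to 37992642 counts per library. No 2 libraries of a group agreed within sampling noise (chi-square per degree of freedom at least 1.95).

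The members and lists were chosen with earlier results of these data known. Named were the members past the threshold with the largest fold changes (5 a direction for IFNG and for KO against WT, 3 for a clone untreated), those standing apart, the stalk, the paralog pairs, and up to 2 genes a direction of each other list. Outside this rule, and named after their values were seen, were the members called within a single clone, those just inside or outside the level limit, Rpl23, the exceptions to a count and the members named with their neighbours. The lists were ribosomal proteins outside the name rule, TOP mRNAs, small nucleolar RNA hosts, ribosome biogenesis, RNA polymerase I, mTORC1 and TOP control, p53 targets, ribosomal protein folding and import, mitochondrial ribosomal proteins, and macrophage, T cell, B cell, fibroblast and epithelial markers. Some results on single genes and 1 motif are not reported here.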

Additional observations from a re-analysis of the deposited data

Results flagged for a closer look

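One result was set aside for a closer look because 2 clones moved in opposite directions with IFNG. The summed share of the 81 ribosomal protein genes was lower in all 3 IFNG libraries than in all 3 untreated libraries of WT2, by 0.0866 percentage points, and higher in all 3 of KO2, by 0.242 percentage points. The change in KO2 exceeded that in WT2 by 0.3286 percentage points. This share is TMM-scaled. As a percent of a library's own counts, the KO2 libraries overlapped, with 4.13% to 4.28% untreated and 4.19% to 4.29% with IFNG. Those of WT2 stayed apart, with 4.01% to 4.17% untreated and 3.84% to 3.95% with IFNG. A two-sided exact permutation of the clone labels within each treatment, over 400 arrangements, gave p = 0.225 for the difference of 0.3286 percentage points. After adjustment over the 10 pairs of clones it was 0.96 and did not pass the threshold. These permutations also mix the levels of the 2 clones, which widens the spread, so they cannot decide whether the responses differed. No test for an outlying library was made in these groups of 3, and the difference of the share was not recomputed with single libraries left out.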

How the results depend on the processing

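No paired analysis was possible because the count columns carry no replicate number. Of 1271 values recomputed under alternatives, 1115 kept their direction and stayed within the limits set (a count within 1.5 times, a median within 0.0493 on the log2 scale), and 156 moved. Of 408 medians of the members 9 moved, and the cause of these moves was not tested.

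For IFNG over 5 clones, lower members were 1 in the reported fit, 2 by DESeq2, 2 with RLE, 5 with no filter, 7 with the length trend removed, 0 with no clone term, 3 in WT clones alone and 0 in KO clones alone. Higher members were 0 in the reported fit, 2 with no filter, 1 with the 10-count filter, 5 with the length trend removed and 8 in KO clones alone. Within clones, higher members went from 0 to 3 (WT1, no filter), from 1 to 0, 2 and 2 (WT2; DESeq2, 10-count filter, length trend), from 0 to 1 and 2 (WT3; no filter, length trend), from 0 to 1 (KO1, length trend) and from 7 to 11 and 22 (KO2; DESeq2, no filter). Lower members went from 3 to 8 and 6 (WT2; no filter, length trend) and from 8 to 4, 16 and 5 (WT3; DESeq2, no filter, 10-count filter). With no filter, 1 member was called for the KO and WT difference in response in place of 0, and 7 for any difference among clones (DESeq2 1).

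For KO against WT, sums per clone gave 0 calls in both treatments, in place of 11 and 16 higher and of 2 and 1 lower, and no filter gave 1 lower untreated. For clones, lower members of WT1 untreated were 2 in place of 1 with no filter and with the length trend removed. Higher members of WT2 were 1 (DESeq2) and 2 (length trend) in place of 0 in both treatments, and of WT3 with IFNG 1 (length trend) in place of 0. The WT3 median with IFNG was -0.2491 with the length trend removed, against -0.3041.

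Leaving out 1 clone or library at a time, IFNG over 5 clones gave 0 to 5 higher and 0 to 5 lower members. Within clones it gave 0 to 11 higher (median -0.013 to 0.0917) in WT1, 0 to 3 higher and 0 to 6 lower in WT2, 0 to 1 higher and 2 to 25 lower in WT3, 0 to 3 higher in KO1 and 0 to 15 higher in KO2. The difference in response gave 0 to 4 higher, with a median of -0.0162 to 0.0812. KO against WT gave 1 to 69 higher and 0 to 2 lower untreated (median 0.0331 to 0.188) and 1 to 72 higher and 0 to 2 lower with IFNG (median 0.0669 to 0.271). Untreated clones gave 39 to 67 higher and 1 to 3 lower (median 0.0892 to 0.1839) in WT1, 0 to 2 higher and 15 to 33 lower in WT2, 1 to 3 lower in KO1 and 10 to 17 higher in KO2. With IFNG they gave 0 to 1 lower in WT1, 0 to 1 higher and 29 to 48 lower in WT2, 35 to 60 higher and 2 to 4 lower in KO1, and 20 to 42 higher and 1 to 3 lower in KO2. With IFNG, 35 and 38 members were higher in KO1 without its IFNG library 2 or 3, in place of 54. Rpl29, with a mean of 521 counts, has the least depth behind it.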

Other observations

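Other gene groups of the ribosome also differed between untreated clones. Of 50 ribosome biogenesis genes, 2 were higher and 41 lower in untreated WT1 than in the other clones (median log2 fold change -0.24; background 28.2% higher and 24.6% lower), where 67 of the 81 ribosomal proteins were higher. In WT2, 26 were higher and 1 lower (background 21.7% and 19%), and in WT3 12 were higher and 9 lower (background 22.5% and 20.7%), with a median of -0.01. In KO1, 30 were higher and 2 lower (background 24.1% and 23.5%), with a median of 0.15, which is also the members' median there. The host genes of small nucleolar RNAs were lower in WT2 for 11 of 11 and in WT3 for 8, and higher in KO1 for 10, beside the same backgrounds. Of 75 mitochondrial ribosomal proteins, 2 were higher and 33 lower in WT3, and 43 were higher and 6 lower in KO1, again beside these backgrounds. The difference between the lists was not tested.

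The summed CPM of the 300 loci marked -ps that carry ribosomal protein names came to 0.174% to 0.234% of the common library size. Of these, 13 reached 20 CPM and 78 had no count in any library. Of the 106 tested for IFNG over the 5 clones, 8 were called as higher and 2 as lower by edgeR, beside 24.9% and 28.3% of all genes tested. Reads can be shared between these loci and their parent genes, so their levels are uncertain.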
